A study of Mus musculus with 17 samples.

Results

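The transcripts of the mitochondrial genome were followed here in RNA from 17 single whole mouse embryos of the C57BL/6J strain. Members were all rows of the expression table whose symbol starts with mt-, which gave 37 of 41709 rows: 13 messenger RNAs (mRNAs), 2 ribosomal RNAs (rRNAs) and 22 transfer RNAs (tRNAs). The first experiment held 4 wild-type embryos (Disp1_WT) and 4 embryos carrying a CS allele over an INDEL allele of Disp1 (Disp1_CS_INDEL), all at E9.5 and from crosses of Disp1CS/+ females with Disp1INDEL/+ males. The second held 4 Myo10+/+ embryos (Myo10_WT) and 5 m1J/m1J embryos (Myo10_m1J), in which both copies of Myo10 carry the m1J allele, all at E8.5 and from crosses of Myo10m1J/+ parents. Disp1 encodes Dispatched, which releases lipid-bearing Hedgehog ligand, and Myo10 encodes the filopodial motor myosin X; the series title is about loading morphogen onto cytonemes. The labels name no transgene, treatment or litter for an embryo, so each embryo was taken as 1 independent sample although littermates may be among them. The CS and INDEL changes are known here by name only. Values are TPM, a measure of transcript abundance per length that is scaled to the same total in each library. This unit keeps no trace of how many reads were counted, and sequencing depth is therefore unknown.

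The mitochondrial genome of a mouse is a small circular DNA present in many copies per cell. It encodes core subunits of respiratory complexes I, III, IV and V, and the rRNAs and tRNAs with which mitochondria translate them, while all other subunits are nuclear genes made in the cytosol. Both strands are transcribed as long precursors, and the tRNAs that lie between the other genes mark where the precursors are cleaved. Most mitochondrial mRNAs then receive a short poly(A) tail, whereas mitochondrial tRNAs do not carry one.

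In the GENCODE M21 annotation of the GRCm38 build, all 37 members were found on chromosome M, and no coordinates of the authors' own build are printed. The plus strand of that annotation carries 12 mRNAs, both rRNAs and 14 tRNAs, and the minus strand carries mt-Nd6 and 8 tRNAs. The mRNAs are between 204 bases (mt-Atp8) and 1824 bases (mt-Nd5) long, with a G+C content of 31.9% to 41.1%. Their last bases are shown because a completed stop codon depends on the poly(A) tail in 3 of them: 8 genes end in TAA, 2 (mt-Nd1 and mt-Nd2) in TAG, and 3 in a single T to which the tail adds the missing adenines. Capitals mark the stop codon or the lone T in the following examples, each the last 30 bases of the gene from 5′ to 3′.
mt-Co1: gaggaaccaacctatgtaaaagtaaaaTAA
mt-Nd6: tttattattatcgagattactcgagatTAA
mt-Co3: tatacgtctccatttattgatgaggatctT
mt-Nd4: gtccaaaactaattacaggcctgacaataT
mt-Cytb: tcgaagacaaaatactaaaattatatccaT

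Several members share bases, and this limits how reads can be assigned between them. Mt-Atp8 lies at chrM:7766-7969 and mt-Atp6 at chrM:7927-8607, so the last 43 bases of mt-Atp8 (chrM:7927-7969) are also the first bases of mt-Atp6; both open reading frames sit on 1 processed mRNA. The last 7 bases of mt-Nd4l (chrM:10167-10173) are likewise the first of mt-Nd4. Both sequences are given with the shared bases in capitals, mt-Atp8 in full and mt-Nd4l by its last 60 bases.
mt-Atp8: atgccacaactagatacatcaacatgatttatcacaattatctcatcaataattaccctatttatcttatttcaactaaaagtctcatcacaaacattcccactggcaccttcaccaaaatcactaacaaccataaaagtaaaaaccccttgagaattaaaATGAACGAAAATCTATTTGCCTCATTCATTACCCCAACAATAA
mt-Nd4l: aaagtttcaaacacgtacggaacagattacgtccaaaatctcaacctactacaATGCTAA

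On opposite strands, mt-Nd5 (chrM:11742-13565) and mt-Nd6 (chrM:13552-14070) share 14 bases (chrM:13552-13565), which read ttaatctcgagtaa on the plus strand. The named library kit (TruSeq RNA Sample Prep v2) does not mark strand, and how strand was counted is not given in the sources used here, so reads of mt-Nd6 and reads antisense to it cannot be told apart. Nuclear pseudogenes are a further source of shared reads: 11 annotated pseudogenes match 9 of the mRNAs at 95% identity or more over at least 100 bases, and 7 of them lie on chromosome 1. Gm10925 is identical to mt-Atp6 over 678 bases, Gm28661 to mt-Co2 over 681, Gm28437 to mt-Co3 over 783, Gm28439 to mt-Nd4 over 876 and Gm10222 to mt-Nd4l over 294. These 11 pseudogenes were not analysed here, and the levels of the 9 mRNAs they match are uncertain to the extent that reads were divided between the copies.

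The libraries of the experiments differed in content well beyond the mitochondrial genes. Nuclear-encoded structural noncoding RNAs (336 rows of 7SL, 7SK, Rmrp and Rpph1 type) lack a poly(A) tail as a class. They took 0.00524% to 0.0132% of all TPM in the 8 libraries at E9.5 and 29.7% to 44.5% in the 9 at E8.5. Replication-dependent histone genes (65 rows), whose mRNAs also lack the tail, took 0.0187% to 0.0241% and 6.80% to 8.68%. Age, experiment and library content cannot be told apart in any comparison of E9.5 with E8.5. Among the targeted genes, Myo10 stood at 19.9 to 33.9 TPM in Myo10_WT and 2.16 to 4.35 TPM in Myo10_m1J, and Disp1 at 15.3 to 19.3 TPM in Disp1_WT and 11.6 to 16.3 TPM in Disp1_CS_INDEL, where the ranges overlap. Heart muscle markers were present in every library, at a summed 1828 to 2501 TPM at E9.5 and 319 to 1551 TPM at E8.5, as were erythroid markers, at 28469.8 to 56915 TPM and 91.5 to 5299.8 TPM. Disp1_WT embryo 3 stood apart in markers of other tissues: the 10 yolk sac endoderm markers summed to 998 TPM against 46.2 to 92.9 TPM in the other 7 embryos at E9.5, and the 8 decidua and trophoblast markers to 753 against 14.5 to 43.2 TPM. At E8.5 the yolk sac markers summed to 713 to 2563 TPM in every library, and the decidua and trophoblast markers reached 243 TPM in Myo10_m1J embryo 2 against 5.22 to 32.9 TPM in the others. The part these tissues play in any mitochondrial level was not tested. In whole embryos, fewer cells of a type and less RNA per cell cannot be told apart.

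Mitochondrial tRNAs, which carry the amino acids for translation inside the organelle, were close to undetected. Of the 22 tRNA rows, 18 were listed at 0 in all 17 libraries, and only 7 of 374 values were above 0, of which 1 came from E9.5 and 6 from E8.5. No tRNA reached a mean of 1 TPM over all libraries, the highest mean being 0.307 TPM for mt-Tm, the methionine tRNA. It was listed at 0.959 TPM in Disp1_CS_INDEL embryo 2, 0.785 TPM in Myo10_WT embryo 4, 1.56 TPM in Myo10_m1J embryo 1 and 1.92 TPM in Myo10_m1J embryo 5. The other 3 rows above 0 were the valine tRNA mt-Tv (0.779 TPM in Myo10_m1J embryo 1), the tryptophan tRNA mt-Tw (0.968 TPM in Myo10_WT embryo 2) and the histidine tRNA mt-Th (0.809 TPM in Myo10_WT embryo 4). These genes are 59 to 75 bases long, and whether the low values come from size or from the missing tail was not tested. The sequence of mt-Tm (chrM:3845-3913) is given as the one tRNA seen in 4 libraries.
mt-Tm: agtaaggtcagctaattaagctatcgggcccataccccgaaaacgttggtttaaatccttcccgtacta

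The rRNAs were the members that separated the experiments most widely. Mt-Rnr1 is the RNA of the small mitochondrial ribosomal subunit (chrM:70-1024), and mt-Rnr2 that of the large subunit (chrM:1094-2675). Mt-Rnr2 stood at 87.5, 121, 164 and 114 TPM in the 4 Disp1_WT embryos and at 85.1, 155, 97.7 and 139.7 TPM in the 4 Disp1_CS_INDEL embryos. At E8.5 it stood at 11928, 9517, 11706 and 6850.4 TPM in Myo10_WT, and at 10789, 5093, 8694, 5659.8 and 13230.5 TPM in Myo10_m1J. The highest value at E9.5 lay below the lowest at E8.5, whereas the genotypes within each age overlapped. Mt-Rnr1 ran from 173 to 288 TPM over the 8 embryos at E9.5, from 1328 to 2806 TPM in Myo10_WT and from 826 to 2926 TPM in Myo10_m1J. Together the rRNAs took 0.0258% to 0.0452% of all TPM at E9.5 and 0.592% to 1.62% at E8.5. At E9.5 both rRNAs ranked below 12 of the 13 mRNAs per length, and at E8.5 mt-Rnr2 was the most abundant mitochondrial transcript in the means of both groups.

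Among the mRNAs, the subunits of cytochrome c oxidase (complex IV), which passes electrons to oxygen, were the most abundant per length. Mt-Co1, its catalytic subunit, averaged 6588 ± 772 TPM in Disp1_WT (SD, n = 4), 6681 ± 1243 TPM in Disp1_CS_INDEL (SD, n = 4), 4793 ± 374 TPM in the 4 Myo10_WT embryos and 4319 ± 959 TPM in the 5 Myo10_m1J embryos. Mt-Co2, which receives the electrons from cytochrome c, averaged 5522 ± 861, 5503 ± 1332, 4236 ± 279 and 4092 ± 613 TPM in the same order and with the same n. Mt-Co3 averaged 4939 ± 668, 5271 ± 1304, 4785 ± 415 and 4662 ± 754 TPM. All 3 were above each of the other 10 mRNAs in the mean of every group. In Disp1_WT their order mt-Co1, mt-Co2, mt-Co3 held in each embryo, whereas in Myo10_WT mt-Co1 was above mt-Co3 in 2 of 4 embryos, so their order there is within the spread.

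Mt-Atp6 and mt-Atp8 encode subunits of ATP synthase (complex V), mt-Atp6 forming part of its proton channel, and mt-Cytb encodes the cytochrome b core of complex III. Mt-Atp6 averaged 3842 ± 678 TPM in Disp1_WT, 3736 ± 988 TPM in Disp1_CS_INDEL (SD, n = 4 each), 2295 ± 298 TPM in the 4 Myo10_WT embryos and 2140.2 ± 375 TPM in the 5 Myo10_m1J embryos. Mt-Cytb averaged 3312 ± 423, 3314 ± 594, 1465 ± 118 and 1279.9 ± 328 TPM in that order. Mt-Atp8 stood at 1384, 1934, 1997 and 2031 TPM in the Disp1_WT embryos, 1278, 1073, 1718 and 2459 TPM in Disp1_CS_INDEL, 447, 399.8, 427 and 287 TPM in Myo10_WT, and 262, 436, 489, 504 and 596 TPM in Myo10_m1J. Every E9.5 embryo was above every E8.5 embryo in all 3 genes, and the genotypes overlapped at both ages.

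The 7 complex I mRNAs, which encode membrane subunits of the NADH dehydrogenase that starts the chain, spread over the widest range of levels. In Disp1_WT the means ran from mt-Nd1 (3117 ± 431 TPM) through mt-Nd3 (1849 ± 316), mt-Nd4 (1354 ± 216), mt-Nd2 (1192 ± 179), mt-Nd4l (872 ± 118) and mt-Nd5 (544 ± 107) to mt-Nd6 (5.84 ± 0.595 TPM; SD, n = 4). In Myo10_WT they were 1653 ± 243 TPM for mt-Nd1, 1066 ± 166 for mt-Nd3, 304 ± 49.7 for mt-Nd2, 303 ± 49.5 for mt-Nd4, 185 ± 40.5 for mt-Nd4l, 132 ± 26.4 for mt-Nd5 and 17.3 ± 2.43 TPM for mt-Nd6 (SD, n = 4). Mt-Nd2 and mt-Nd4 could not be ordered there, since each was the higher in 2 of 4 embryos. In Disp1_WT mt-Cytb was above mt-Nd1, and mt-Nd3 above mt-Atp8, in 3 of 4 embryos each, so these orders did not hold throughout. Mt-Nd6, the only mRNA of the minus strand, was the lowest of the 15 rRNAs and mRNAs in every group, with 4.2 to 6.51 TPM in the embryos at E9.5 and 8.4 to 19.9 TPM in those at E8.5.

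**Figure D1:**
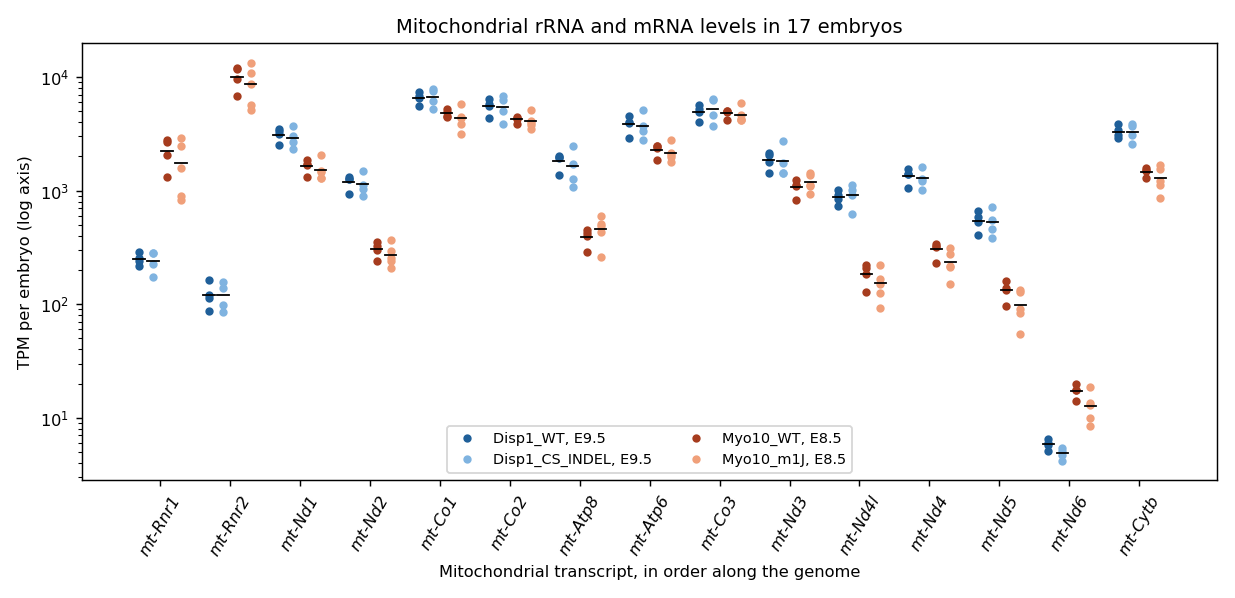
TPM (log axis) of the 2 rRNAs and 13 mRNAs, in their order along the mitochondrial genome. Each point is an embryo and each bar a group mean; the E8.5 groups lie above the E9.5 groups for mt-Rnr1, mt-Rnr2 and mt-Nd6 and below or level with them for the other mRNAs, while the genotypes of each age overlap.

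Summed over the 13 mRNAs, mitochondrial transcripts took a few percent of each library. The share was 2.82%, 3.54%, 3.65% and 3.98% in the Disp1_WT embryos and 2.61%, 3.73%, 3.20% and 4.37% in Disp1_CS_INDEL. It was 2.22%, 2.22%, 2.33% and 1.89% in Myo10_WT and 1.95%, 1.86%, 2.03%, 1.73% and 2.64% in Myo10_m1J. Group means were 3.50 ± 0.490%, 3.48 ± 0.749%, 2.16 ± 0.191% (SD, n = 4 each) and 2.04 ± 0.353% (SD, n = 5). The genotypes overlapped within each age. The ages overlapped by 1 embryo: the highest at E8.5 (Myo10_m1J embryo 5) stood above the lowest at E9.5 (Disp1_CS_INDEL embryo 1). With the structural noncoding RNAs left out of the total, the E8.5 means were 3.27 ± 0.305% and 3.29 ± 0.369%, and with the histone genes left out as well they were 3.73 ± 0.359% and 3.76 ± 0.42%, while the E9.5 means moved by less than their spread. On each of these reduced totals the ranges of the ages overlapped.

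Ratios between members do not depend on the total. Mt-Rnr2 was 0.402 to 0.568 times mt-Rnr1 at E9.5 and 4.25 to 6.36 times at E8.5. The 2 rRNAs summed to 0.00928 to 0.0124 times the 13 mRNAs at E9.5 and to 0.318 to 0.677 times at E8.5. Both ratios separated the ages without overlap and overlapped between genotypes. Mt-Nd6 stood at 0.717% to 1.61% of mt-Nd5, its neighbour on the other strand, at E9.5 and at 7.83% to 18.2% at E8.5, again with no overlap.

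Genes that share an mRNA differed in how constant their ratio was. Mt-Nd4l and mt-Nd4 lie on 1 processed mRNA, and their ratio was 0.602 to 0.804 over the embryos at E9.5 and 0.56 to 0.713 at E8.5, so that the ages overlapped. For mt-Atp8 and mt-Atp6, the other such pair, the ratio was 0.478, 0.488, 0.498 and 0.451 in Disp1_WT and 0.182, 0.169, 0.171 and 0.155 in Myo10_WT. It varied more among mutants, at 0.46, 0.287, 0.516 and 0.483 in Disp1_CS_INDEL and 0.128, 0.221, 0.229, 0.284 and 0.216 in Myo10_m1J. Disp1_CS_INDEL embryo 2 was the lowest at E9.5 and stood just above the highest embryo at E8.5, Myo10_m1J embryo 4. The same embryo was lowest at E9.5 in the ratio of mt-Nd3 to mt-Co3 (0.226 against 0.355 to 0.426 in the other 7), and Myo10_m1J embryo 4 was the highest at E8.5 (0.338 against 0.2 to 0.263).

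Mt-Atp8 (204 bases), mt-Nd4l (297) and mt-Nd3 (348) are the shortest mRNAs, and a measure of short against long nuclear transcripts was set beside these ratios. It is the median log2 deviation, from the mean of the experiment, of coding genes of up to 700 bases minus that of genes of at least 3000 bases. In Disp1_CS_INDEL embryo 2 it was 0.02, inside the range of -0.09 to 0.09 over the embryos at E9.5. In Myo10_m1J embryo 4 it was 0.09, the highest of a range of -0.18 to 0.09 at E8.5. Erythroid markers were lowest at E9.5 in Disp1_CS_INDEL embryo 2, at a summed 28469.8 TPM. The part of either measure in the ratios was not tested.

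**Figure D2:**
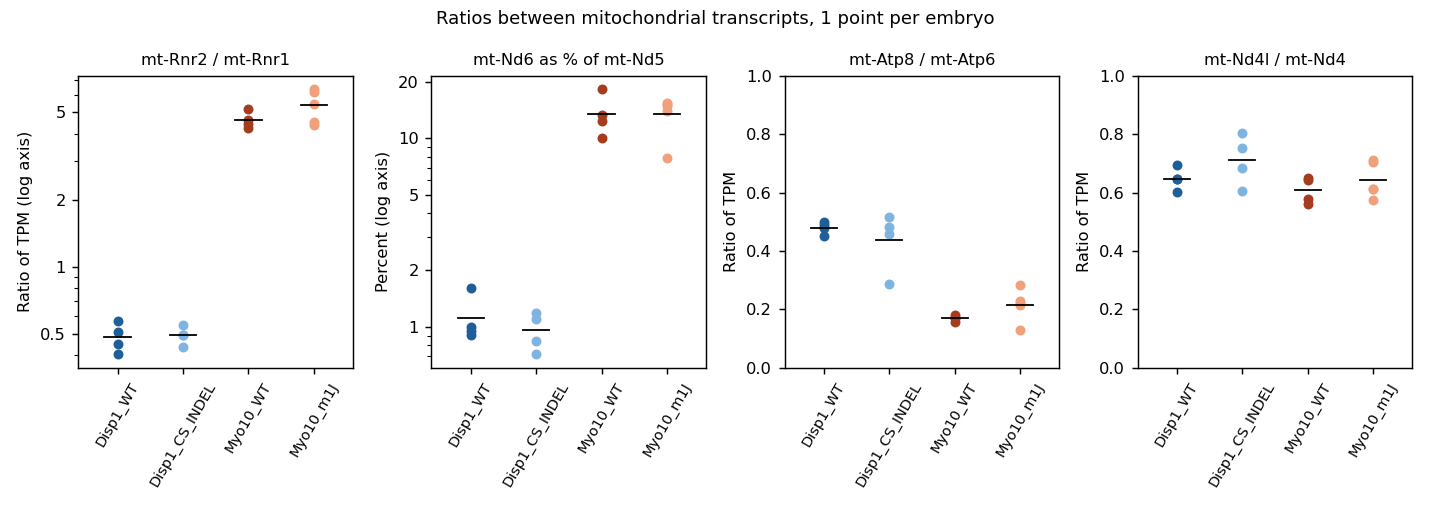
Ratios of TPM between mitochondrial transcripts, with 1 point per embryo and a bar at each group mean; the first pair of panels has log axes. The ages separate for mt-Rnr2 over mt-Rnr1 (0.402 to 0.568 against 4.25 to 6.36), for mt-Nd6 as a percentage of mt-Nd5 and for mt-Atp8 over mt-Atp6, and overlap for mt-Nd4l over mt-Nd4.

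Within the pool of mitochondrial mRNA, complex IV took a larger part at E8.5 than at E9.5. Its 3 mRNAs made up 49.6%, 47.8%, 48.8% and 48.9% of the summed TPM of the 13 mRNAs in Disp1_WT, and 49.1%, 54.2%, 49.3% and 48.1% in Disp1_CS_INDEL. At E8.5 they made up 61.8%, 63.9%, 63.6% and 66.6% in Myo10_WT and 63.5%, 64.5%, 64.8%, 63.1% and 63.9% in Myo10_m1J. No embryo of one age reached the range of the other. The 7 complex I mRNAs took 23.0% to 26.2% at E9.5 and 15.1% to 18.7% at E8.5, and mt-Cytb of complex III took 8.53% to 10.2% and 5.00% to 7.91%, both without overlap. Complex V took 12.9% to 17.3% and 11.3% to 13.2%, where the ranges overlapped through Disp1_CS_INDEL embryo 2. These shares are descriptions and were not tested.

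Gene by gene, the shares of 11 of the 13 mRNAs did not overlap between the wild types of the ages, and those of mt-Atp6 and mt-Nd3 did. A share within the 13 has no counterpart over all genes, so no background is given for it. The mean share in Disp1_WT was 2.94 times that in Myo10_WT for mt-Nd4l, 2.92 times for mt-Atp8, 2.77 times for mt-Nd4, 2.56 times for mt-Nd5 and 2.43 times for mt-Nd2. These 5 span both the shortest and the longest mRNA and are the 5 least abundant ones at E8.5 apart from mt-Nd6. The part of length or of level in their shares was not tested. Smaller shifts the same way were 1.40 times for mt-Cytb and 1.17 times for mt-Nd1. Mt-Atp6, which lies on the same mRNA as mt-Atp8, stood at 1.03 times. The share was lower in Disp1_WT for mt-Co1 (0.85 times), mt-Co2 (0.803 times), mt-Co3 (0.639 times) and mt-Nd6 (0.213 times). None of the 13 shares separated the genotypes within either age.

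**Figure D3:**
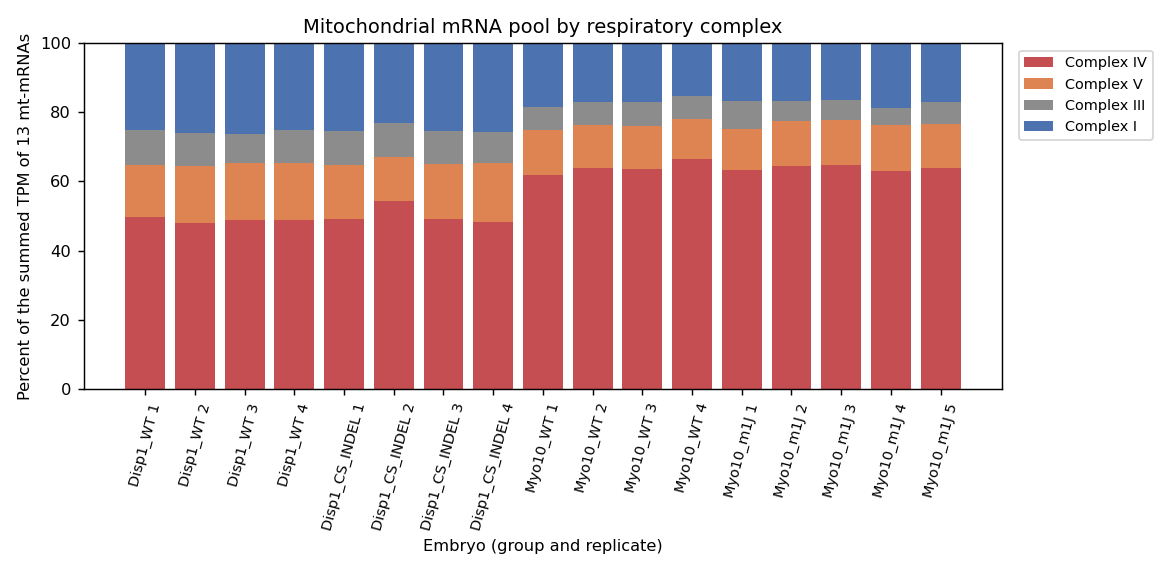
Percentage of the summed TPM of the 13 mitochondrial mRNAs that falls to each respiratory complex, as 1 stacked bar per embryo. Complex IV takes 47.8% to 54.2% in the E9.5 embryos and 61.8% to 66.6% in the E8.5 embryos, and the ranges of the genotypes overlap.

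Several embryos stood above or below the rest across most mRNAs at once. Taking each mRNA against its mean log2 TPM over the experiment, Disp1_WT embryo 1 was lower in 12 of 13 mRNAs, with a median deviation of -0.31 and mt-Nd6 as the exception at 0.30. Disp1_CS_INDEL embryo 1 was lower in all 13 (median -0.38) and embryo 4 higher in 12 (median 0.34), so both extremes of the E9.5 experiment carried the same genotype. At E8.5, Myo10_m1J embryo 5 was higher in all 13 (median 0.35) and Myo10_m1J embryo 4 lower in 11 (median -0.44), the exceptions being mt-Atp8 and mt-Nd3. In embryo 4 the deviation ran from -0.98 for mt-Nd5 to 0.35 for mt-Nd3. Shifts across most mRNAs were also seen elsewhere. Myo10_m1J embryos 2 and 3 were lower in 12 of 13 each (medians -0.21 and -0.06). Myo10_WT embryo 4 was lower in 11 (median -0.17) and Disp1_CS_INDEL embryo 3 in 10 (median -0.10). Myo10_WT embryos 1 and 3 and Disp1_WT embryo 4 were lower in only 1 each (medians 0.17, 0.24 and 0.20). Disp1_WT embryos 2 and 3 and Myo10_WT embryo 2 were lower in 3, 2 and 3. Mixed embryos were Disp1_CS_INDEL embryo 2, lower in 5 of 13 (-0.65 to 0.44, median 0.02), and Myo10_m1J embryo 1, lower in 8 of 13 (-0.66 to 0.23, median -0.09). Because every level is a share of its library, it also depends on how much of the library other transcripts took. The part of this in the shifts was not tested.

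The wild types of both experiments were compared with limma (a moderated linear model of log2(TPM + 1), fitted to every gene that reached 1 TPM in 4 or more of the libraries). All 15 rRNAs and mRNAs passed that filter in each comparison made, and 0 of 22 tRNAs did. In Disp1_WT relative to Myo10_WT, 11 mRNAs were higher, mt-Nd6 and both rRNAs were lower, and mt-Co3 did not pass a Benjamini-Hochberg adjusted p of 0.05. This has to be read against the background, since 79.6% of all 13397 genes tested were called, 69.4% as higher and 10.2% as lower, with a median log2 difference of 0.62 over all genes. Embryos of the groups did not overlap in TPM for 13 of the 15 members (all but mt-Co2 and mt-Co3), beside 74.1% of all genes. Age, experiment and library content cannot be told apart in this comparison.

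The largest differences were those of the rRNAs. Mt-Rnr2 was lower by 6.35 on the log2 scale (log2 difference -6.35, SE 0.20, limma adjusted p = 7.01e-10), and mt-Rnr1 differed by -3.09 (SE 0.20, limma adjusted p = 1.44e-07). Mt-Nd6 differed by -1.41 (SE 0.12, limma adjusted p = 1.34e-06). All 3 ran against the median of all genes, in the direction of only 10.2% of the genes tested, and their embryos did not overlap, as in 7.96% of genes with E9.5 lower.

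Of the mRNAs that were higher at E9.5, 5 had a log2 difference of about 2: mt-Nd4l (2.25, SE 0.16), mt-Atp8 (2.24, SE 0.15), mt-Nd4 (2.16, SE 0.14), mt-Nd5 (2.03, SE 0.17) and mt-Nd2 (1.97, SE 0.14). Mt-Cytb (1.17, SE 0.09), mt-Nd1 (0.92, SE 0.12), mt-Nd3 (0.79, SE 0.14) and mt-Atp6 (0.73, SE 0.14) were nearer the median of all genes. Mt-Co1 (0.45, SE 0.09) and mt-Co2 (0.37, SE 0.11) lay below that median, and so did mt-Co3 (0.04, SE 0.10, limma adjusted p = 0.732). For the 11 called, limma adjusted p ran from 1.51e-07 (mt-Nd4) to 0.00795 (mt-Co2). Mt-Atp8 and mt-Atp6 lie on 1 processed mRNA, as do mt-Nd4l and mt-Nd4, so the 11 are not independent transcripts. The values of mt-Atp8 (2.24) and mt-Atp6 (0.73) therefore cannot be read as separate mRNAs changing apart, and why they differ was not tested.

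Other scalings moved all members downward together. Median-of-ratios scaling brought the median of all genes to 0.01 and left 6 mRNAs higher, with a split of 4858 genes higher and 4821 lower overall in place of 9304 and 1364. Leaving out the structural noncoding RNAs (median 0.08, 5496 higher and 4056 lower) left 7 mRNAs higher. Leaving out the histone genes too (median -0.08, 4144 higher and 5517 lower) left 6. Mt-Nd4l, mt-Atp8, mt-Nd4, mt-Nd5, mt-Nd2 and mt-Cytb were higher at E9.5 under each of these scalings, and the rRNAs and mt-Nd6 were lower under each. Mt-Co3 changed sign and was lower at E9.5 under all 3 scalings (limma adjusted p = 0.00417, 0.000917 and 0.000165), and mt-Co1 and mt-Co2 also changed sign under each, passing only with the histone genes left out. The direction of these 3 complex IV mRNAs between the ages thus turned on the scaling, whereas their part of the mitochondrial pool is the same under any scaling of a library.

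**Figure D4:**
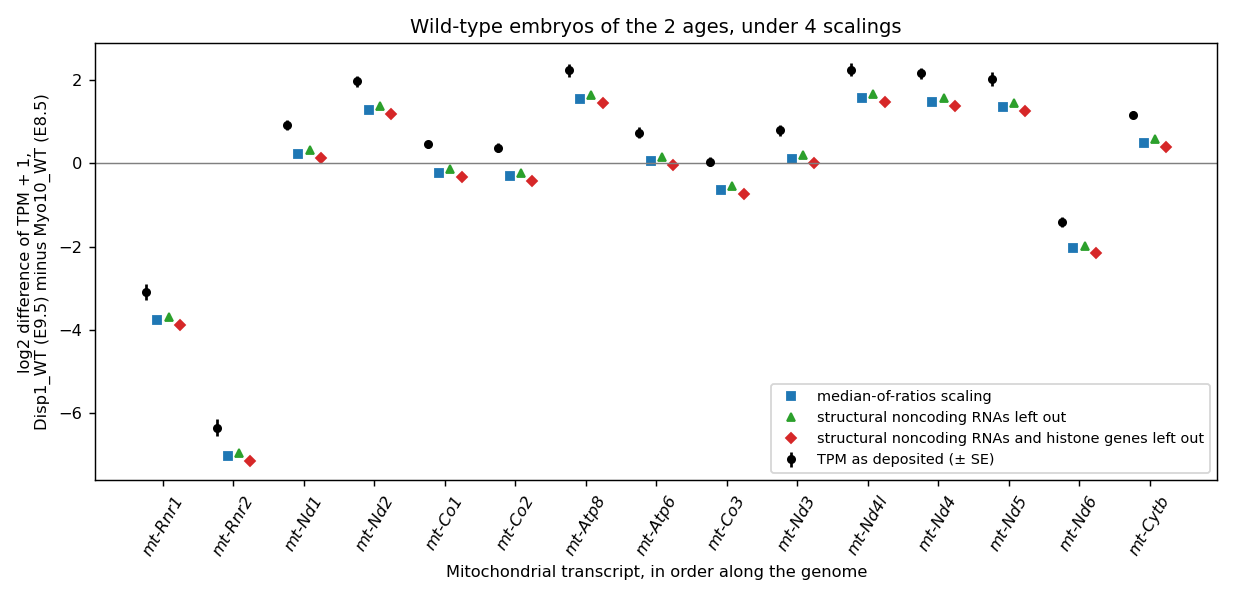
Log2 difference of TPM + 1 between Disp1_WT (E9.5) and Myo10_WT (E8.5) for the 15 rRNAs and mRNAs. Black points with bars are the deposited TPM with SE, and coloured symbols are the 3 other scalings; mt-Rnr2 lies near -6.35, the group of mt-Nd4l, mt-Atp8, mt-Nd4, mt-Nd5 and mt-Nd2 near 2, and mt-Co1, mt-Co2 and mt-Co3 cross 0 with the scaling.

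The nuclear subunits of the same complexes also differed between the wild types, and more evenly. All 37 tested nuclear genes of complex I, 9 of complex III, 16 of complex IV and 17 of complex V were called higher in Disp1_WT, as were the 4 genes of complex II, which has no mitochondrial gene. Median log2 differences were 1.02, 0.97, 1.08, 1.08 and 1.10 in that order, beside the 0.62 of all genes, of which 69.4% were called higher. Examples are Ndufa1 of complex I (306 against 112 TPM, log2 difference 1.44, SE 0.07), Uqcrq of complex III (141 against 49.0 TPM, 1.51, SE 0.08), Atp5d of complex V (391 against 133 TPM, 1.55, SE 0.07) and Sdhc of complex II (135 against 44.0 TPM, 1.60, SE 0.07). After median-of-ratios scaling 27 of 37, 5 of 9, 9 of 16, 11 of 17 and 2 of 4 were called higher, with 2 of complex I lower, beside 36.4% of all 13333 genes called higher and 36.2% lower under that scaling. List medians were then 0.29 to 0.42, beside the 0.01 of all genes.

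Set beside these nuclear partners, the mitochondrial complexes went different ways. In each embryo the median TPM of the mitochondrial subunits was divided by the median of the nuclear subunits. For complex IV the ratio was 18.4 ± 3.04 in Disp1_WT (SD, n = 4) and 26.7 ± 2.56 in Myo10_WT (SD, n = 4). For complex I it was 7.65 ± 1.26 and 3.97 ± 0.729, and for complexes III and V it was 11.4 ± 1.87 and 11.2 ± 1.18, and 9.23 ± 1.65 and 9.75 ± 1.29. The ranges of the wild-type embryos were apart for complex IV (14.4 to 21.8 against 24.6 to 30.3) and complex I (5.81 to 8.52 against 3.13 to 4.72). They overlapped for complexes III and V. The mutants stood at 18.5 ± 5.23 (Disp1_CS_INDEL) and 26.7 ± 4.34 (Myo10_m1J) for complex IV, with ranges that overlap those of their own wild types. Those ranges, 12.4 to 24.3 and 22.0 to 32.5, also overlap each other, so complex IV did not separate the ages over all 17 embryos. For complex I the mutants ran from 5.77 to 9.92 (Disp1_CS_INDEL) and from 2.42 to 3.94 (Myo10_m1J), and the ages stayed apart.

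Genes that copy, transcribe, process and translate the mitochondrial genome were less uniform between the ages. Of 16 replication and transcription genes 11 were called higher in Disp1_WT and 1 lower, the exception being the polymerase gene Polg (21.3 against 50.8 TPM, log2 difference -1.18, SE 0.16, limma adjusted p = 4.36e-05), beside 69.4% of all genes called higher and 10.2% lower. Of 18 RNA processing and stability genes 8 were higher and 2 lower, the latter being Lrpprc, a factor that stabilises mitochondrial mRNAs (40.1 against 52.6 TPM, -0.38, SE 0.07), and Pnpt1, an RNA-degrading enzyme (27.4 against 35.8 TPM, -0.37, SE 0.12). Of 27 translation factors and tRNA synthetases 22 were higher, led by Lars2, the leucine synthetase, at 45.9 ± 6.45 TPM in Disp1_WT against 2.07 ± 0.639 TPM in Myo10_WT (log2 difference 3.95, SE 0.16, limma adjusted p = 5.00e-09). After median-of-ratios scaling these 3 lists turned to 3 higher and 7 lower, 4 and 13, and 8 and 13, beside 36.4% of all genes higher and 36.2% lower, so their main direction depended on the scaling. Polg, Lrpprc and Pnpt1 were lower and Lars2 higher at E9.5 under each scaling, with Lars2 between 3.38 and 3.53. Biogenesis regulators (6 of 10 higher) and mitochondrial stress genes (13 of 15 higher, 1 lower) gave 2 higher with 6 lower of 9 and 8 higher with 4 lower after that scaling.

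The first mutant comparison asked how E9.5 embryos with the CS allele over the INDEL allele of Disp1 differ from wild types. No mitochondrial transcript passed the test, since 0 of the 15 tested were called by limma, beside 0.0301% of all 13294 genes tested (4 genes). Among the mRNAs 10 differences were below 0 and 3 above, with a median of -0.06 and a range of -0.23 to 0.07, beside a median of 0.01 over all genes. Mt-Atp8 gave the lowest value (-0.23, SE 0.23) and mt-Co3 the highest (0.07, SE 0.17), and limma adjusted p was 1.00 for each of the 15. The mt-Atp8 value was -0.05 without Disp1_CS_INDEL embryo 2 and -0.45 without Disp1_CS_INDEL embryo 4.

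Only mt-Nd6 had an unadjusted p under 0.05 in that comparison, as did 2.26% of all genes. It stood at 6.51, 5.98, 5.78 and 5.07 TPM in Disp1_WT and at 4.2, 5.1, 5.42 and 4.68 TPM in Disp1_CS_INDEL, with 2 mutant embryos above the lowest wild-type embryo. Its log2 difference was -0.23 (SE 0.10). The rRNAs differed by -0.07 (mt-Rnr1, SE 0.15) and -0.03 (mt-Rnr2, SE 0.21). Without Disp1_WT embryo 3, the one with yolk sac and decidual markers, these were 0.00 and 0.12, and 0 of 15 were called. No member had groups that did not overlap, beside 1.55% of all genes.

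The spread among embryos set what could be seen. Standard errors of the mRNAs in the Disp1 comparison ran from 0.10 to 0.23 on the log2 scale, and the mutants carried both the lowest and the highest mRNA share of the 8 embryos. A difference of that order could not be told from 0 with 4 embryos a group.

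In the second comparison, at E8.5, most mitochondrial transcripts had a log2 difference below 0 in Myo10_m1J, as had nearly all genes, and none passed the test. Limma called 0 of the 15 tested, beside 0.00796% of all 12560 genes tested (1 gene). The mRNAs gave 11 differences below 0 and 2 above, with a median of -0.17. Over all genes the median was -0.16 and 94.0% of differences were below 0, so the direction of the mRNAs is that of the table as a whole. Structural noncoding RNAs took 33.7 ± 3.49% of TPM in the 4 wild types and 38.1 ± 4.47% in the 5 mutants (mean ± SD). With them left out of the total, the median was -0.07 over the 13355 genes that then passed the filter. Their part in this shift was not tested.

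The lowest values belonged to complex I mRNAs and mt-Rnr1. Mt-Nd5 stood at 160.4, 139, 133 and 96.8 TPM in Myo10_WT and at 127, 90.7, 83.9, 55.0 and 134 TPM in Myo10_m1J (log2 difference -0.47, SE 0.23, limma adjusted p = 0.473). Its lowest embryo was a mutant and its highest a wild type, but 1 mutant (134 TPM) lay above 2 of the wild types and another (127 TPM) above 1. Mt-Nd4 stood at 339, 320.3, 323 and 229.8 TPM against 275, 218, 214, 151 and 313 TPM (-0.40, SE 0.19, limma adjusted p = 0.473). Mt-Nd4l gave -0.32 (SE 0.22) and mt-Nd6 -0.46 (SE 0.19), the one member with an unadjusted p under 0.05, as had 6.8% of all genes. Mt-Rnr1, the small-subunit rRNA, gave -0.47 (SE 0.36). Single embryos bore on these values: without Myo10_m1J embryo 4, mt-Nd5 was -0.28, mt-Nd4 -0.25 and mt-Nd4l -0.15, and mt-Rnr1 was -0.25 without Myo10_m1J embryo 2. Without that embryo, the one with decidual markers, 0 of 15 were called as well. The yolk sac markers had differences of the same sign, with 10 of 10 below 0 in Myo10_m1J, beside 94.0% of all genes. Their median was -0.50, and 0 were called by limma. Summed levels of these markers were 828 to 2563 TPM in Myo10_WT against 713 to 2137 TPM in Myo10_m1J. The part of the yolk sac markers in the mitochondrial values was not tested. Groups overlapped for all 15 members, whereas 0.995% of all genes had groups that did not.

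The remaining mRNAs lay closer to 0 or to the median of all genes. Mt-Cytb gave -0.23 (SE 0.16), mt-Nd2 -0.18 (SE 0.16), mt-Co1 -0.17 (SE 0.14), mt-Nd1 -0.12 (SE 0.14), mt-Atp6 -0.11 (SE 0.13), mt-Co2 -0.06 (SE 0.10) and mt-Co3 -0.05 (SE 0.11). Only mt-Atp8 (0.20, SE 0.20) and mt-Nd3 (0.16, SE 0.14) were above 0. These are 2 of the 3 shortest mRNAs, and the other of the 3, mt-Nd4l, gave -0.32 (SE 0.22). The large-subunit rRNA mt-Rnr2 gave -0.26 (SE 0.26). Limma adjusted p ran from 0.473 to 0.763 over the 15. After median-of-ratios scaling, mt-Nd1, mt-Nd2, mt-Co1, mt-Co2, mt-Atp6 and mt-Co3 changed sign, to values of 0.02 to 0.15 that did not pass either. Without the structural noncoding RNAs, mt-Co2 and mt-Co3 changed sign.

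**Figure D5:**
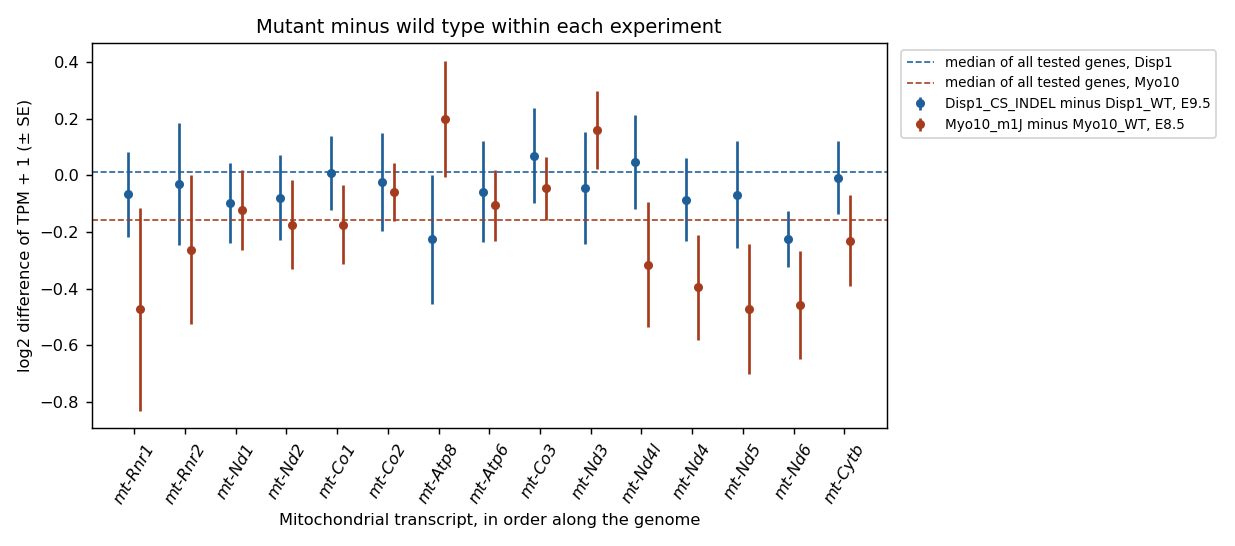
Log2 difference of TPM + 1 with SE for the 15 rRNAs and mRNAs, mutant minus wild type, at E9.5 (Disp1, blue) and at E8.5 (Myo10, red). Dashed lines are the medians over all genes tested (0.01 and -0.16); most red points lie around the red line, with mt-Nd5, mt-Nd6 and mt-Rnr1 at the bottom and mt-Atp8 and mt-Nd3 above 0.

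The difference between the mutant effects was tested in 1 fit of all 17 libraries. It was called for 0 of the 15 members, beside 0.0216% of all 13910 genes tested (3 genes), and no member had an unadjusted p under 0.05, beside 4.95% of all genes. Values ran from -0.43 for mt-Atp8 (SE 0.34) to 0.41 for mt-Rnr1 (SE 0.46), with limma adjusted p from 0.586 to 0.954. Age and experiment go with the mutated gene in this test.

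Nuclear genes of the mitochondrion gave 0 limma calls in either mutant comparison, of 169 tested for Disp1 and 167 for Myo10. Over all genes, 0.0301% were called for Disp1 and 0.00796% for Myo10. An unadjusted p under 0.05 was reached by 2 genes each (Lars2 and Iars2 for Disp1, Pprc1 and Ppargc1b for Myo10), beside 2.26% and 6.8% of all genes, over the subunits of complexes I to V and the lists of replication, processing, translation, biogenesis and stress genes. In the Disp1 comparison the smallest p among them was that of Lars2, at 68.8 ± 13.3 TPM in Disp1_CS_INDEL and 45.9 ± 6.45 TPM in Disp1_WT (SD, n = 4 each; log2 difference 0.56, SE 0.13, limma adjusted p = 0.793). In the Myo10 comparison it was that of Pprc1, a coactivator of the PGC-1 family, at 28.9 TPM in Myo10_m1J and 41.1 TPM in Myo10_WT (-0.50, SE 0.18, limma adjusted p = 0.473). List medians lay between -0.05 and 0.05 for Disp1 and between -0.19 and -0.04 for Myo10, where 94.0% of all genes were below 0. Nuclear complex I subunits had medians of 0.00 and -0.07, and the 7 mitochondrial complex I mRNAs ran from -0.47 to 0.16 in the Myo10 comparison; the contrast between them was not tested.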

How the data were processed

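RNA of single whole embryos was purified at 1 time and sequenced on a NovaSeq instrument after TruSeq library preparation, per the labels' protocols. The deposited table holds TPM per gene symbol, computed by the authors and summing to 1000000 in each library. Per the submitters' processing notes the genome build was GRCm39 (mm39). The quantification tools and gene models were not given in the sources used here. No column was left out, and no libraries were identical.

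Groups came from the sample titles. Differences were fitted over the whole table with limma 3.58.1 (R 4.3.3) on log2(TPM + 1), with a mean-variance trend, a filter of TPM at least 1 in at least 4 libraries, and two-sided Benjamini-Hochberg adjustment at 0.05; this scale understates changes of low genes. Scripts were tested on simulated data. Alternative settings were another pseudocount (0.1), the filter dropped or replaced by a mean of 5 TPM or more, scaling by median of ratios, structural noncoding RNAs removed from the total, a fit without the trend, all 17 libraries fitted together, blocking by replicate number, and each library left out; leaving out histone genes too, and the scalings of the nuclear lists, were added after seeing the data. Members and gene lists were chosen with earlier results of these data known. Every member is accounted for; tRNAs are named from a mean TPM of 1 or a passed test, and listed nuclear genes where they passed or had the 2 smallest p, and not all of these are printed. Under that rule the 4 tRNAs above 0, the examples among called nuclear genes and single embryos were chosen after their values were seen. Sequences, coordinates and pseudogenes came from GENCODE M21 (GRCm38), with matches by blastn 2.17.0. The labels name no litter, and whether the replicate numbers pair embryos is not known. Deviations of same-numbered embryos correlated at -0.24 to 0.35 (Disp1) and -0.29 to 0.46 (Myo10), and 4 such pairs per experiment cannot decide it. The symbol Atp5po was not found, and 7SK and Rmrp rows were found by pattern. TPM gives no counting intervals.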

Additional observations from a re-analysis of the deposited data

Results flagged for a closer look

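In 10 of 104 groups of values checked, 1 embryo stood farther from the rest of its group than a Dixon test at the 95% level allows. Chance gives about 1 in 20 for independent groups. These groups reuse the same embryos, and the shares and ratios are built from the same transcripts, so the flags are not independent. Disp1_WT embryo 1 accounts for 4 of the 10. It was low in mt-Nd2 (927 TPM against 1256 to 1318 in the others) and in mt-Atp8 (1384 against 1934 to 2031 TPM). Its complex V share of the mitochondrial mRNA pool was low (15.2% against 16.4% to 16.6%), and its mt-Nd6 as a percentage of mt-Nd5 was high (1.61% against 0.907% to 0.995%).

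Disp1_CS_INDEL embryo 2 had a low complex I share (23.0% against 25.3% to 25.7%). Myo10_WT embryo 4 was low in mt-Co3 (4168 against 4915 to 5046 TPM) and in mt-Nd4 (229.8 against 320.3 to 339 TPM). Myo10_m1J embryo 5 was high in mt-Nd1 (2079 against 1294 to 1496 TPM) and in mt-Co3 (5967 against 4205 to 4664 TPM). Myo10_m1J embryo 1 had a low mt-Nd6 as a percentage of mt-Nd5 (7.83% against 13.9% to 15.4%).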

How the results depend on the processing

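Depth is unknown for these TPM values, so what depth limits cannot be stated. Counts of called members stayed at 0 in the Disp1 comparison and in the difference of the mutant effects under every alternative run. In the Myo10 comparison they were 0 except with the replicate block, under which 3 were lower (mt-Nd4l -0.47, mt-Nd4 -0.51, mt-Nd5 -0.60; limma adjusted p = 0.0491 each) and 46 genes in all were called in place of 1; the Disp1 block called 2 genes in place of 4. No label says that the numbers pair the embryos, so the block rests on no stated pairing. Same-numbered embryos did not always correlate best, which does not exclude a pairing. In the age comparison the members called higher went from 11 to 6 with median-of-ratios scaling, 7 with structural noncoding RNAs left out and 6 with histone genes left out too, where those called lower went from 3 to 6. The mRNA shares at E8.5 went to 3.27% and 3.29%, and to 3.73% and 3.76%, under the last pair of settings (Myo10_WT and Myo10_m1J).

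Signs reversed as follows. For Myo10 with median-of-ratios scaling: mt-Nd1 0.076, mt-Nd2 0.023, mt-Co1 0.024, mt-Co2 0.14, mt-Atp6 0.092 and mt-Co3 0.15. With structural noncoding RNAs left out: mt-Co2 0.041 and mt-Co3 0.053; with histone genes too, 0.044 and 0.057. For the ages with median-of-ratios scaling: mt-Co1 -0.23, mt-Co2 -0.31 and mt-Co3 -0.64. With structural noncoding RNAs left out: -0.14, -0.22 and -0.56; with histone genes too, -0.33, -0.42 and -0.75, and mt-Atp6 -0.051. The median of all genes moved with each scaling (0.62 to 0.01, 0.08 and -0.08), and the cause of the rest was not tested.

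Leaving out each embryo in turn changed no count (11 higher and 3 lower for the ages). Ranges were -0.16 to 0.082 (mt-Rnr1, Disp1), -0.18 to 0.12 (mt-Rnr2, Disp1), -0.034 to 0.22 (mt-Co3, Disp1), -0.45 to -0.049 (mt-Atp8, Disp1), -0.71 to -0.25 (mt-Rnr1, Myo10), -0.61 to -0.28 (mt-Nd5, Myo10), -0.48 to -0.15 (mt-Nd4l, Myo10), 0.059 to 0.39 (mt-Atp8, Myo10) and -0.026 to 0.13 (mt-Co3, ages). Shares ranged over 3.34% to 3.72%, 3.18% to 3.77%, 2.11% to 2.25% and 1.89% to 2.12% in Disp1_WT, Disp1_CS_INDEL, Myo10_WT and Myo10_m1J. Of all values recomputed, 773 were labelled the same. For log2 differences this means the same direction and side of the threshold, for shares a change within the group SD, and for counts a limited change. Among the log2 differences 30 reversed, 3 newly passed and 7 no longer passed, and 9 counts or shares moved by more.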
